A study of Homo sapiens with 4 samples.

Results

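The cyclins, the cyclin-dependent kinases (CDKs) and the proteins that switch CDKs on and off were examined in SKOV3, a long-established line of human ovarian carcinoma cells, after rhSTIP1 and without it. The 33 genes were the cell cycle cyclins, the CDKs, the CDK inhibitors, the CDC25 phosphatases, the kinases WEE1 and PKMYT1, the CKS subunits, and cyclins G and H with CDK7. They were taken from the 19775 genes that the array annotation names by exactly 1 symbol, each read from the brightest of its probe sets. The control group was 2 arrays of untreated SKOV3 cells, and the treated group was 2 arrays of SKOV3 cells given rhSTIP1, read as recombinant human STIP1, an HSP90 cochaperone that cells also secrete. All 4 arrays measured total RNA of this 1 line, while neither the dose nor the time of treatment is stated in the labels. Whether 2 arrays of one group stand for separate cultures is not stated, so the spread behind every p-value may be purely technical.

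Progress through the cell cycle is driven by CDKs, which act only when bound to a cyclin. D-type cyclins with CDK4 and CDK6 act in G1, cyclin E with CDK2 at the entry into S phase, cyclin A with CDK2 and CDK1 from S phase to G2, and cyclin B with CDK1 in mitosis. CDC25 phosphatases remove, and WEE1 and PKMYT1 add, the phosphates that hold CDKs inactive, and the INK4 and CIP/KIP proteins inhibit CDKs by binding. Transcripts of the late members are made mainly in G2 and are held down in G1 by the DREAM complex, which binds a promoter element called the cell cycle genes homology region (CHR), often near CCAAT boxes bound by NF-Y.

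Promoters of the members are shown first, because the members with lower signal after rhSTIP1 included most of those with these elements. RefSeq promoter windows on GRCh38.p14, from 250 bases before to 50 after an annotated start, were found for 26 of the 33 members, 41 windows in all. They were searched on both strands for the CHR letters TTTGAA, for CCAAT, and for 4 E2F site sequences (TTTCCCGC, TTTCGCGC, TTTGCCGC and TTTGGCGC). The sequences below end at the base before the annotated start, except for CDK1, and capitals mark the matches. CCNB2 (chr15:59105006-59105145, plus strand), CKS1B (chr1:154974541-154974680, plus strand), CKS2 (chr9:89311035-89311194, plus strand) and CCNF (chr16:2429327-2429446, plus strand) hold CCAAT followed by a CHR match.
CCNB2: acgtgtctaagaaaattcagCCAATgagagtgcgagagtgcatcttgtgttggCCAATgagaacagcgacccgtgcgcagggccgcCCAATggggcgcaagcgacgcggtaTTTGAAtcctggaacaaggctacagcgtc
CKS1B: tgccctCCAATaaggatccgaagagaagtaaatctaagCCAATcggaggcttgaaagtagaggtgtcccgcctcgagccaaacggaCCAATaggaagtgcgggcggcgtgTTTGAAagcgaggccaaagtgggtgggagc
CKS2: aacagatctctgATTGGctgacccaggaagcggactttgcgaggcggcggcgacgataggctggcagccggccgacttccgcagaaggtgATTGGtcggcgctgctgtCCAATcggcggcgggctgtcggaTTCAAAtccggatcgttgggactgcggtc
CCNF: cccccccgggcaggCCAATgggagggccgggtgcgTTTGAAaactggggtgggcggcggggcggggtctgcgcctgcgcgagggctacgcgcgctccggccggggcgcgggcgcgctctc
CDK1 has several starts, and the 30 bases around the CHR match nearest before its most downstream start are given (chr10:60778447-60778476, plus strand).
CDK1: gccctttagcgcggtgagTTTGAAactgct
CCNB1 (chr5:69167050-69167149, plus strand) and CCNA2 (chr4:121823884-121823953, minus strand) have CCAAT matches but no match to the CHR letters in their windows. Only the exact letters TTTGAA were searched, so a variant of the element would be missed. CDK4 (chr12:57752311-57752410, minus strand), a member without lower signal after rhSTIP1, has no match to any of these motifs.
CCNB1: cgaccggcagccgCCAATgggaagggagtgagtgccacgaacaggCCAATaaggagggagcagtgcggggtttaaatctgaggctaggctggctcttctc
CCNA2: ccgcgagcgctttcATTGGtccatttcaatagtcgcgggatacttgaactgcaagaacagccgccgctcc
CDK4: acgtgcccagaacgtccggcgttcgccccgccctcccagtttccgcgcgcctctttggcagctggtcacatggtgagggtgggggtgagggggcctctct

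In CCNB2 and CKS2 the CHR match begins 29 bases before the start and in CKS1B 30 bases before it, with the nearest CCAAT match at 54, 52 and 54 bases. CCNF has its CHR match further out, 85 bases before the start. CDKN3 has its CHR match 170 bases before the start, beyond a CCAAT match at 83 bases. In CDC25C the CHR match lies 30 bases before the start in a window and after the start in another. A CHR and a CCAAT match stood in 1 window, in any order and at any distance, for 7 members, CCNB2, CCNF, CDC25C, CDK1, CDKN3, CKS1B and CKS2. Such a pair is found in 5.9% of all 35116 windows, the CHR letters in 15.2%, CCAAT in 34.6% and an E2F sequence in 3.31%. All 7 of these members had a log2 fold change (rhSTIP1 minus control) below 0, with a median of −0.93 and a range from −1.56 to −0.57. The other 16 tested members with a window ran from −1.34 to 0.48 with a median of −0.10, and 10 of them were below 0. An E2F sequence was found for 2 of the 26 members with a window, CDK1 (−1.41) and CDC25A (0.44). CCAAT was found for 16 of the 26. Of these only CDC25A and CCND3 (0.18) were above 0, and CDKN2C was not tested. Arrays of CCNB2, CDKN3, CKS1B and CKS2 overlapped between groups, while CCNA2 and CDKN1B, without a pair, were lower without overlap by at least 1.5-fold. Over all genes, 57.5% of the 572 tested genes with such a pair were below 0, with a median of −0.06. Of the 9451 with a window but no pair 46.4% were, with a median of 0.02. Arrays were lower without overlap and by at least 1.5-fold for 13.3% of the genes with a pair and for 3.25% of those without. The shares that were higher in that way were 1.92% and 1.72%. These shares are descriptions without a test, and a gene with several windows has more chances of a match.

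**Figure D1:**
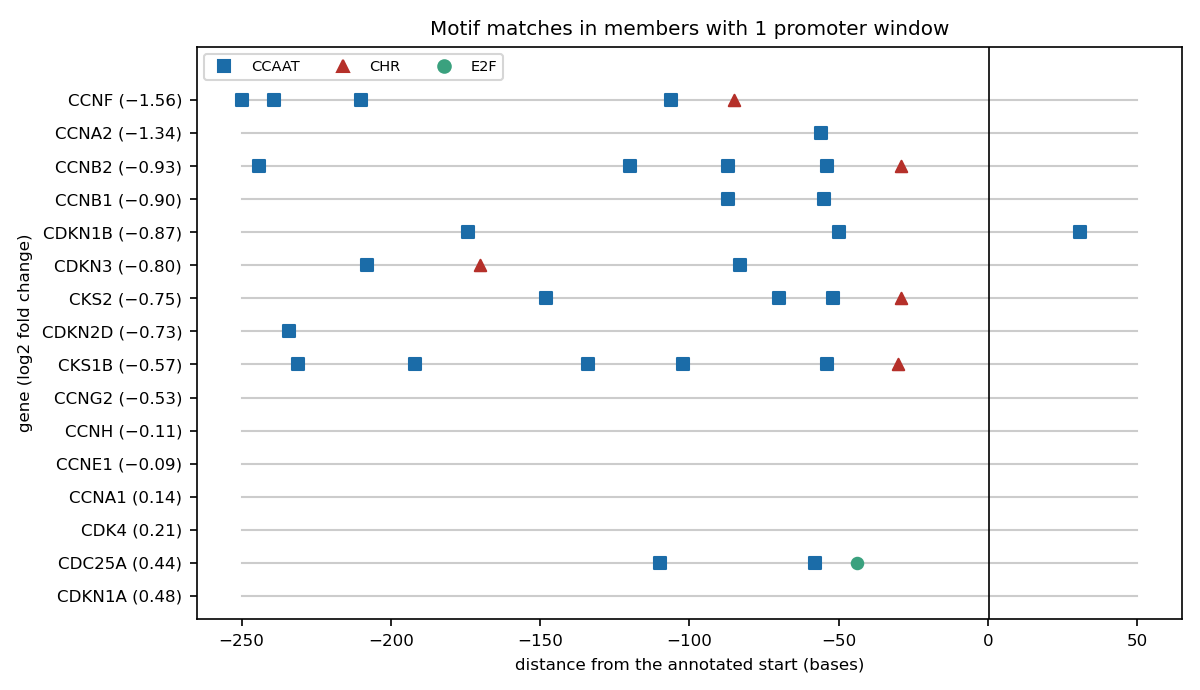
Positions of CCAAT, CHR and E2F matches (symbols) along the promoter windows of the tested members with 1 window, in bases from the annotated start, ordered by log2 fold change. CHR matches lie 29 or 30 bases before the start in CCNB2, CKS2 and CKS1B, and the rows of CDK4, CCNA1, CCNE1, CCNH, CCNG2 and CDKN1A hold no match.

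Of the 33 members 29 had a mean signal of at least 69.4, the median over probe sets, and were tested. Their log2 fold change, computed on log2(signal + 16), was below 0 for 21 and above 0 for 8, with a median of −0.29, where 46.8% of the 12296 tested genes were below 0 and their median was 0.02. The members' median was −0.068 when rhSTIP1 array 1 was left out and −0.12 when control array 1 was. Both rhSTIP1 arrays lay below both controls, by at least 1.5-fold between group means, for 6 members, CCNF, CDC25C, CDK1, CCNA2, PKMYT1 and CDKN1B. The same was true of 3.79% of all tested genes. It was true in the higher direction for 0 members and for 1.9% of genes. In limma's test with Benjamini-Hochberg adjustment over all genes 0 members passed at 0.05, as did 0% of all genes, and the smallest adjusted p of a member was 0.486, for CDK1. The 6 members above were also those with an unadjusted limma p under 0.05, all lower, where 2.64% of all genes were lower and 1.04% higher by that measure. The count of 6 became 13 when either control array 2 or rhSTIP1 array 1 was left out. Leaving out control array 1 gave 5 and leaving out rhSTIP1 array 2 gave 7. Over all genes the share separated lower was larger as well, at 8.41% and 6.69% for the first pair of arrays and 5.32% and 7.71% for the second. The counts of 5 and 7 each held 5 of the 6 genes, and all 6 were among both sets of 13.

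**Figure D2:**
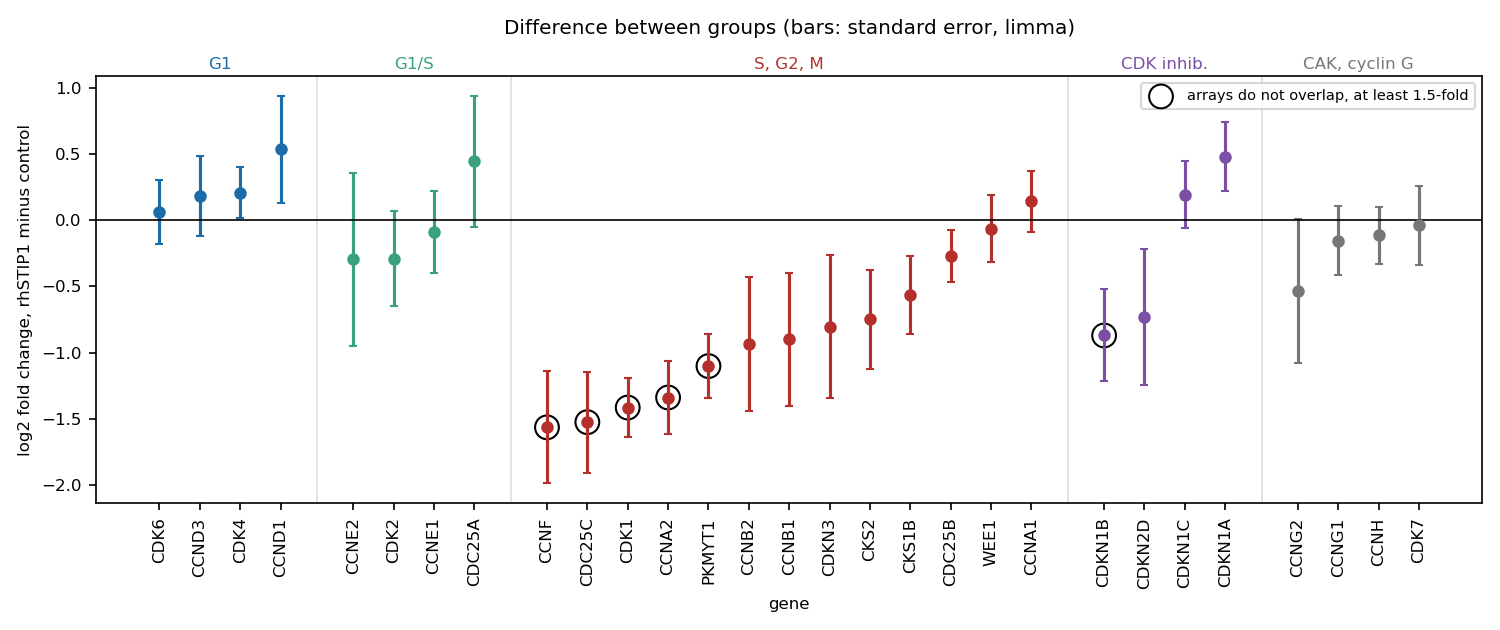
Log2 fold change (rhSTIP1 minus control) of each tested member with its standard error from limma, by cell cycle group; circles mark the 6 members whose arrays did not overlap and differed by at least 1.5-fold. The G1 members lie above 0, and 12 of the 13 members acting in S phase, G2 and mitosis lie below it.

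The 13 members that act from S phase to mitosis held 5 of those 6 genes. Their median log2 fold change was −0.90, 12 of 13 were below 0, and 6 were lower without overlap at any size of difference, where 14.9% of genes were. CDK1, the catalytic partner of the A and B cyclins, had control signals of 6202 and 5026, against 2076 and 2095 after rhSTIP1. In the probe set used the arrays of each group lay close together and well apart from the other group, and the log2 fold change was −1.41 ± 0.22 (standard error from limma, 2 arrays against 2). CCNA2, the cyclin A of somatic cells, had control signals of 3045 and 1960.1, against 943 and 971 after rhSTIP1. Both treated arrays were again nearly equal, and the group difference was −1.34 ± 0.28, or 2.53-fold lower. In such bulk samples fewer cells in a phase and less of the transcript per cell cannot be told apart.

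The phosphatase CDC25C and the kinase PKMYT1 act on CDK1 in opposite senses, and both had lower signals after rhSTIP1. CDC25C, which activates CDK1 at mitosis, had 1706 and 991 in the controls and 609 and 319 after rhSTIP1, a log2 fold change of −1.52 ± 0.38. PKMYT1, which holds CDK1 inactive at the membranes of the endoplasmic reticulum and Golgi, had 1157 and 985 against 509 and 470.2, a log2 fold change of −1.10 ± 0.24. The groups did not overlap for either gene in the probe set used, while a dimmer second probe set of CDC25C overlapped. CCNF, an F-box protein that marks other proteins for degradation and activates no CDK, had the lowest log2 fold change of the tested members, −1.56 ± 0.42. It had control signals of 1009 and 412, against 246 and 176 after rhSTIP1, and the log2 difference of control array 2 from control array 1 was −1.26. Its log2 fold change was −0.93 or −2.19 when control array 1 or 2 was left out. The limma p-values adjusted over all genes were 0.702 for CCNA2, CDC25C and PKMYT1 and 0.821 for CCNF.

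A second set of late members had lower group means but overlapping arrays. CCNB1, the main cyclin partner of CDK1 in mitosis, had control signals of 10969.5 and 3832, against 4876 and 2468 after rhSTIP1. CCNB2, the other B-type cyclin, had 7044 and 2660.3 against 3330.4 and 1535. In both genes control array 2 lay below rhSTIP1 array 1, while array 2 of each group lay below array 1. The log2 fold changes were −0.90 ± 0.50 and −0.93 ± 0.51. Without control array 1 they were only −0.14 and −0.23.

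CDKN3, a phosphatase that removes the activating phosphate of CDK2 and CDK1, followed the same order of arrays, with 7258 and 2785 in the controls and 4112 and 1603 after rhSTIP1. The small CDK-binding subunits CKS1B and CKS2 also overlapped. CKS2 had 20866 and 10758 in the controls against 12176 and 6518 after rhSTIP1 and a log2 fold change of −0.75 ± 0.38. CKS1B, which also helps the ligase subunit SKP2 to recognise CDKN1B, had 8953 and 6438 against 6656 and 3947, at −0.57 ± 0.30. When control array 1 was left out the log2 fold changes of CDKN3 and CKS2 were −0.12 and −0.27, and that of CKS1B was −0.19 when rhSTIP1 array 2 was left out. For CDKN3 and CKS2 they were −1.49 and −1.23 when control array 2 was left out, and for CKS1B −0.94 when rhSTIP1 array 1 was. For CCNB1, CCNB2 and these 3 genes both treated arrays lay below control array 1, and rhSTIP1 array 1 lay above control array 2.

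The remaining 3 genes of this group differed little. CDC25B, a phosphatase that starts CDK1 activation in G2, had 11860.2 and 12188 in the controls and 8669 and 11468 after rhSTIP1. Its arrays did not overlap, but the log2 fold change was only −0.27 ± 0.20. WEE1, the nuclear kinase that inhibits CDK1 and CDK2, had overlapping groups, with 2067 and 2182 against 1716 and 2396, at −0.07 ± 0.25. CCNA1, the cyclin A best known from the germ line, had 2635 and 2999.9 against 3459 and 2785, at 0.14 ± 0.23. The paralogs CCNA1 and CCNA2 therefore stood on opposite sides of 0, and this difference between them was not tested.

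**Figure D3:**
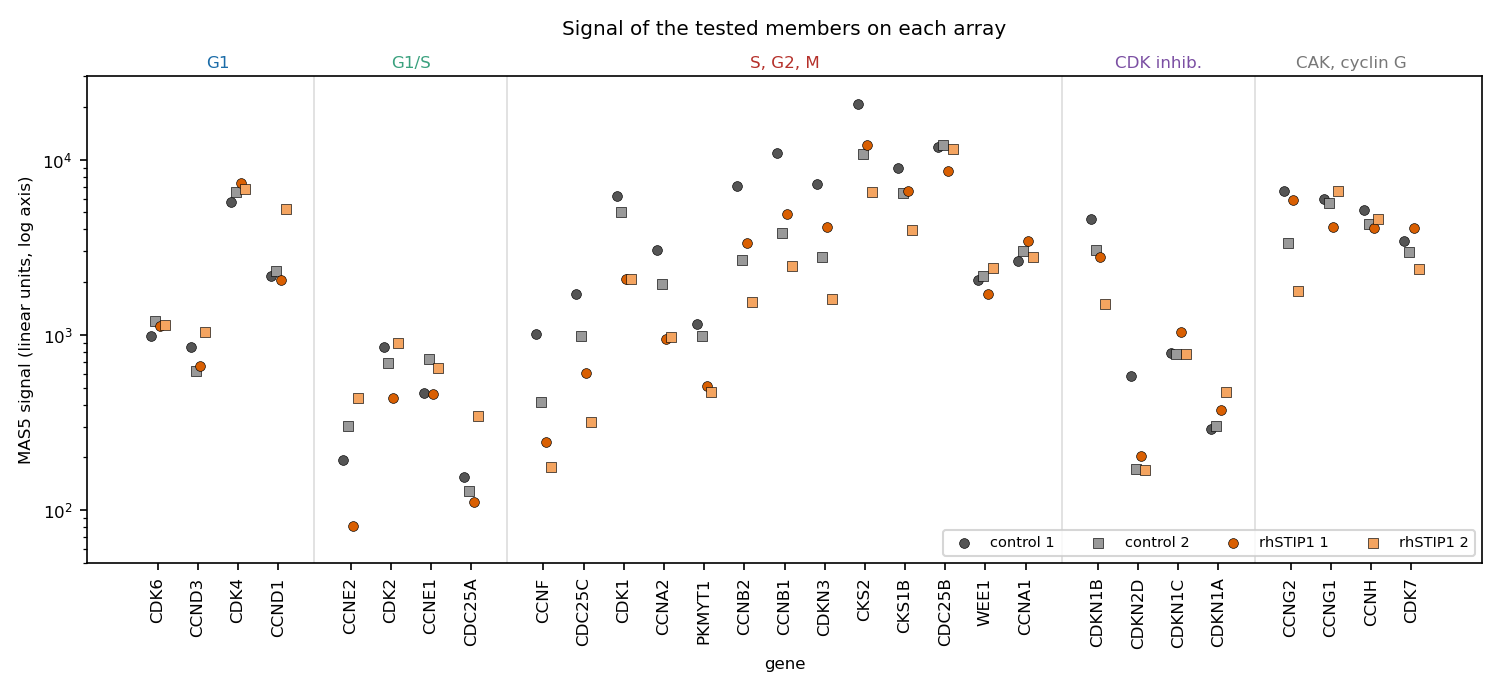
MAS5 signal of the 29 tested members on each of the 4 arrays, on a log axis, by cell cycle group; grey symbols are controls and orange symbols rhSTIP1, circles array 1 and squares array 2. CDK1, CCNA2, PKMYT1, CDC25C and CCNF have both orange symbols below both grey ones, whereas in CCNB1, CCNB2, CDKN3, CKS1B and CKS2 the circle of rhSTIP1 lies above the square of the controls.

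In the probe sets used, the tested G1 members showed no lower mean signal after rhSTIP1. The 4 tested genes had log2 fold changes between 0.06 and 0.53 with a median of 0.19 (−0.037 when rhSTIP1 array 2 was left out), and none had an unadjusted p below 0.05 (0 of 4). CCND1, the cyclin D through which growth factor signals reach the cell cycle, had 2179 and 2326 in the controls and 2048 and 5210.1 after rhSTIP1. Only rhSTIP1 array 2 was high, and the log2 fold change was 0.53 ± 0.41, or −0.14 without that array. CCND3 showed the same order among the treated arrays, with 854 and 625 in the controls and 665 and 1035 after rhSTIP1, at 0.18 ± 0.30. The kinase CDK4 had 5754 and 6539 against 7376 and 6816. Its groups did not overlap, as was true of 14% of all genes in the higher direction, but the log2 fold change was 0.21 ± 0.20. CDK6, the other kinase of D-type cyclins, had 984 and 1197 against 1131 and 1137, at 0.06 ± 0.24. CCND2 was below the level for testing, with 48.7 and 7.22 in the controls and 58.6 and 51.2 after rhSTIP1.

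The members acting at the entry into S phase differed more between the treated arrays than between groups. All 4 had overlapping groups, and all 4 were higher on rhSTIP1 array 2 than on rhSTIP1 array 1, by a median of 1.27 on the log2 scale, where the median over all genes was 0.04. CCNE2, an E-type cyclin, had 193 and 304 in the controls and 81.5 and 439 after rhSTIP1, so the lowest and the highest value both came from treated cells. CDC25A, the phosphatase that activates CDK2, had 154 and 128 against 111 and 343. CDK2 had 856 and 695 against 435 and 905. CCNE1, the other E-type cyclin, had 468 and 727 against 459.6 and 651. Their log2 fold changes were −0.30 ± 0.65, 0.44 ± 0.49, −0.29 ± 0.36 and −0.09 ± 0.31. The median of these 4 genes turned to 0.52 when rhSTIP1 array 1 was left out and to −0.57 when rhSTIP1 array 2 was.

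Of the 7 CDK inhibitors 4 were tested, and they did not move one way. CDKN1B (p27), an inhibitor of CDK2 complexes, had 4593 and 3071 in the controls and 2797 and 1498 after rhSTIP1. The groups did not overlap, though control array 2 and rhSTIP1 array 1 were close, and the log2 fold change was −0.87 ± 0.35 (unadjusted p 0.0382, adjusted p 0.999 by limma). When control array 1 or rhSTIP1 array 2 was left out the groups still did not overlap, but the difference was −0.58 or −0.42, less than 1.5-fold. Under median centring the groups overlapped. CDKN1A (p21), a p53 target in cells with p53, which SKOV3 is known to lack, had 292 and 301 against 372 and 474. Both treated arrays were higher, at 0.48 ± 0.26 or 1.39-fold. The related inhibitors thus had opposite signs, and CDKN1C (p57), the third of that family, had 789 and 783 against 1044 and 775, with overlap and a log2 fold change of 0.19 ± 0.25.

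Of the INK4 inhibitors, which bind CDK4 and CDK6, only CDKN2D was tested. It had 579 and 171 in the controls and 204 and 168 after rhSTIP1, so control array 1 stood above the other 3 arrays, and its log2 fold change was −0.73 ± 0.51, or 0.11 without that array. CDKN2A and CDKN2B were not tested. CDKN2A had 28.0 and 55.2 in the controls and 103 and 80.8 after rhSTIP1, a mean just under the level for testing. CDKN2B had 1.83, 26.1, 2.09 and 5.54 on control arrays 1 and 2 and rhSTIP1 arrays 1 and 2. At such signals MAS5 values vary widely, and no detection calls were used here. CDKN2C was not analysed here, because the annotation used names no probe set for it alone.

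The last 4 members are not tied to a phase, and all 4 had overlapping groups. CCNH and CDK7 form the kinase that activates other CDKs and also serves transcription. CCNH had 5136 and 4276 in the controls and 4080.2 and 4596 after rhSTIP1, and CDK7 had 3452 and 2974 against 4092 and 2375, at −0.11 ± 0.22 and −0.04 ± 0.30. CCNG1, another p53 target, had 5976 and 5636 against 4114 and 6593, at −0.16 ± 0.26. CCNG2, a cyclin linked to cell cycle arrest, had 6597 and 3361 against 5882 and 1790.3. Array 2 was low in both groups, and the log2 fold change was −0.53 ± 0.55, against 0.32 without rhSTIP1 array 2.

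Arrays of the same group also differed from each other in the late members, though not evenly. Over the 13 members of S phase to mitosis, the second control was lower than the first in 10 genes, with a median difference of −0.63, and the second rhSTIP1 array was lower than the first in 9 genes, with a median of −0.45. Over all genes these medians were 0.03 and 0.04. CDK1 and CCNA2 differed by −0.30 and −0.63 between the controls but by only 0.013 and 0.041 between the rhSTIP1 arrays. Between arrays of the same number, rhSTIP1 lay below control by a median of −1.08 for array 1 and −0.79 for array 2, while the median of rhSTIP1 array 1 minus control array 2 was −0.34. The median of the 13 members moved to −0.29 or −1.49 when control array 1 or 2 was left out, and to −1.32 or −0.41 when rhSTIP1 array 1 or 2 was. The difference between group means was larger than both differences within groups for 7 of the 29 tested members, CDK1, CCNA2, CCNF, CDC25C, PKMYT1, CDK4 and CDKN1A, and for 18.1% of all tested genes.

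**Figure D4:**
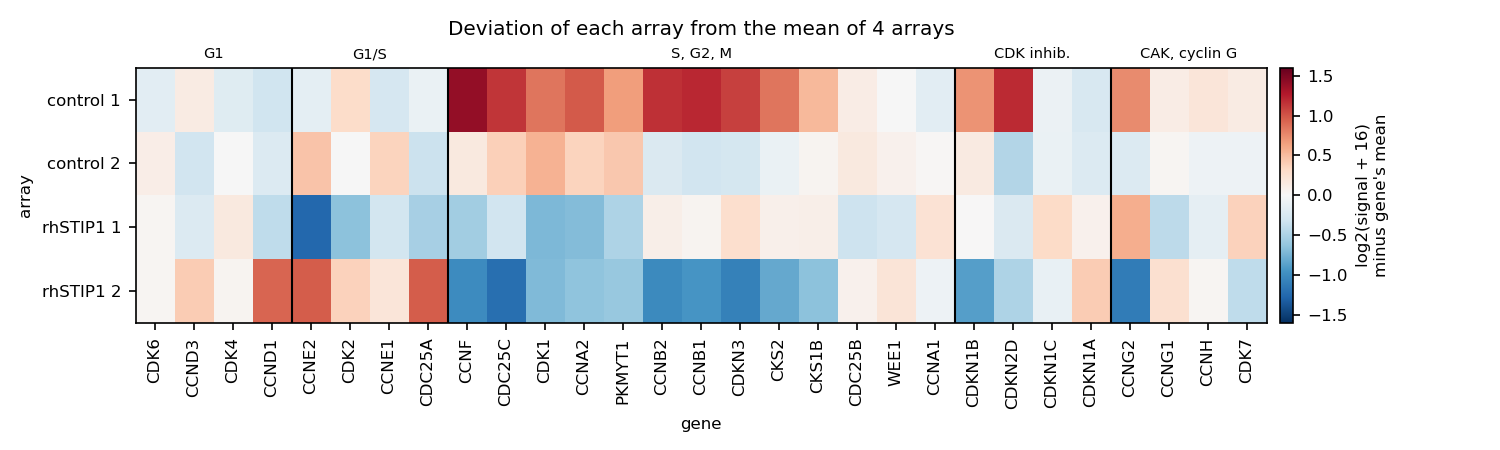
Log2(signal + 16) of each tested member on each array, as the deviation from the mean of the gene's 4 arrays; red is above and blue below that mean. Control 1 is high and rhSTIP1 2 low over most members of S phase to mitosis, and rhSTIP1 1 is low and rhSTIP1 2 high over the G1/S members.

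Some of these array differences coincide with technical values. RNA quality was read from ratios of 3′ to 5′ probe sets, which rise in degraded RNA. That of ACTB was 8.79 on rhSTIP1 array 2 and from 2.45 to 2.74 on the other arrays. That of GAPDH was also highest on rhSTIP1 array 2, at 1.32, against 0.987 to 1.16 on the others. The part of RNA quality in the high CCND1, CCNE2 and CDC25A signals of rhSTIP1 array 2 was not tested. Without that array the log2 fold changes of CDK1, CCNA2 and PKMYT1 were −1.42, −1.36 and −1.05. Those of CDKN1B, CCNB1, CCNB2 and CDKN3 were −0.42, −0.41, −0.38 and −0.13. The median of the 13 members of S phase to mitosis was −0.41, against −0.90 with all arrays. The part of RNA quality in these values was not tested either. Pairs of arrays correlated at 0.952 to 0.979 across tested genes, and genes are not replicates. Most markers of SKOV3 as an epithelial ovarian line were present. EPCAM, PAX8, ERBB2, KRT7, KRT8 and KRT18 had signals of at least 4538 on each of the 4 arrays, and KRT19 and MUC1 of at least 1202. CDH1 was uneven, with 299 and 1355 in the controls and 521 and 2109.8 after rhSTIP1. WT1 ran from 37.3 to 118, MSLN from 185 to 323, and MUC16 from 5.47 to 14.2. Of the fibroblast, leukocyte and endothelial markers 5 of 15 with a probe set reached the level for testing. The summed signal of the 6 fibroblast markers was 603 and 327 in the controls and 565 and 364 after rhSTIP1, that of the 5 leukocyte markers 243 and 200.1 against 201 and 343, and that of the 4 endothelial markers 199 and 211 against 354 and 206. The 5 at that level were COL1A1 (56.2 to 345), COL1A2 (40.9 to 100), DCN (35.1 to 121), CD79A (97.0 to 151) and PECAM1 (121 to 172). COL1A2 and PECAM1 were higher after rhSTIP1 without overlap, by less than 1.5-fold, while COL1A1, DCN and CD79A overlapped. At any size of difference 14% of all tested genes were higher without overlap. For PECAM1 control array 2 and rhSTIP1 array 2 were nearly equal, at 135.5 and 135.6. COL3A1, LUM, PDGFRB, CD3E, CD14, LYZ, VWF and KDR had means under that level. So did PTPRC, which marks leukocytes, with 19.4 to 43.7, and CDH5, which marks endothelium, with 1.89 to 4.98.

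Several members have more than 1 probe set, which gives a second reading of the same RNA rather than a replicate. The members had 73 probe sets, of which 48 reached the level for testing, and 12 members had several such probe sets. In 11 of the 12 all of them pointed the same way. The 3 probe sets of CDK1 gave log2 differences from −1.59 to −1.41 and did not overlap in any. The others spread more within groups than the one used, with 4361 and 1930.05 in the controls against 1493 and 712 after rhSTIP1 in one, and 6013 and 3011 against 1904 and 1029.6 in the other. CCNA2 gave −1.58 and −1.34, and CCNF −1.56 and −1.11. Both probe sets of CCNB1, at −1.02 and −0.90, and both of CDKN3, at −0.80 and −0.75, overlapped between groups.

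Other genes read less evenly. CCNG2 was taken from its brightest probe set, which overlapped, but its other 3 gave −0.57, −0.80 and −1.04 without overlap. One of these had control signals of 363 and 260.5, against 217 and 132 after rhSTIP1. The second probe set of CDK2 gave −0.92 without overlap, with dim control signals of 84.8 and 170.3, against 43.3 and 72.4 after rhSTIP1. For CCND1 the second probe set had 290.3 and 444 against 470.3 and 813 and did not overlap, at 0.76. The 4 of CDK6 disagreed in sign, from −1.29 for the dimmest to 0.06 for the brightest. Only the brightest, the one used, was above 0, and those at −0.19 and −1.29 were lower without overlap. CDC25C was separated in the probe set used, but its dimmer second one overlapped, with 183 and 77.4 in the controls against 96.9 and 18.6 after rhSTIP1, at −1.12. Whether the groups overlap thus depends on the probe set for CCNG2, CDK2, CCND1, CDC25C and CDK6.

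**Figure D5:**
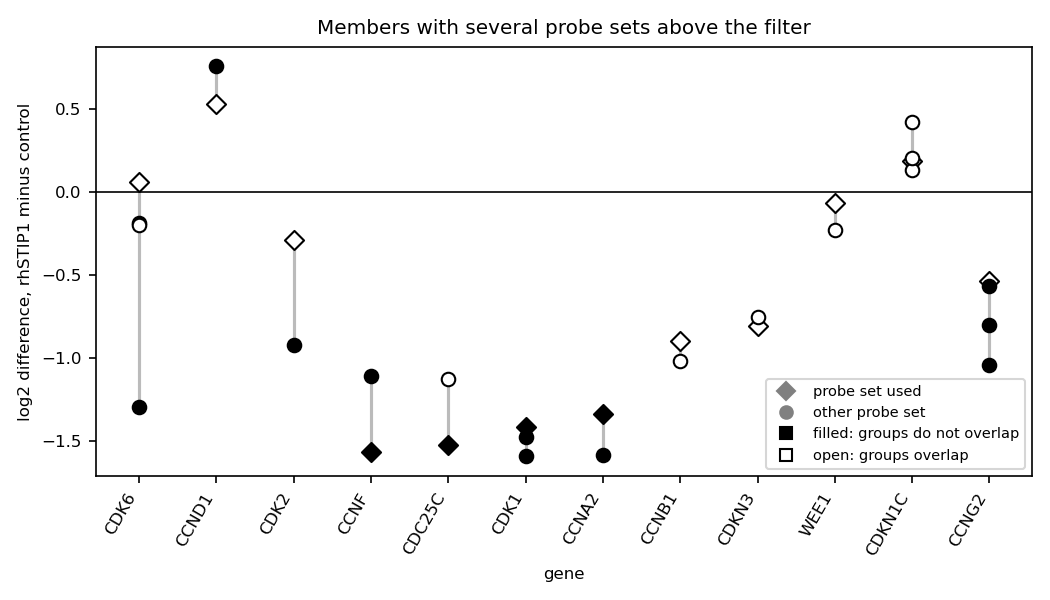
Log2 difference (rhSTIP1 minus control) of every probe set above the level for testing, for the 12 members with more than 1; diamonds are the probe sets used, circles the others, and filled symbols mark groups that did not overlap. The probe sets of CDK1, CCNA2 and CCNF are all filled and below −1, and those of CDK6 lie on both sides of 0.

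Genes that control the members were read from the same model. Of 20 genes of the RB, E2F and DREAM factors, which repress or activate many cyclin genes, 16 were below 0, with a median of −0.22. Of these 20, 7 were lower without overlap by at least 1.5-fold against 0 higher. Over all tested genes 46.8% were below 0, and 3.79% were lower and 1.9% higher in that way. The 4 with the smallest p were the E2F repressors E2F8 (−1.99 ± 0.35) and E2F7 (−1.16 ± 0.23), MYBL2 (−1.25 ± 0.24), which works with the MuvB core of DREAM in S phase, and the activator E2F2 (−1.04 ± 0.30). Of 20 genes of the ubiquitin pathways that destroy cyclins and CDK inhibitors 13 were below 0, with a median of −0.07. By at least 1.5-fold 1 was separated lower, a share near that of all genes. That gene was FBXO5, an inhibitor of the anaphase-promoting complex, with 3018 and 1575 in the controls and 889 and 999 after rhSTIP1, −1.20 ± 0.33. UBE2C (−1.10 ± 0.53), UBE2S (−0.78 ± 0.45) and the activator CDC20 (−1.09 ± 0.63) of that complex had the next smallest p, with overlapping arrays.

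Cyclins and CDKs outside the division cycle differed less than the late members. Of 22 tested, 13 were below 0, the median was −0.04, and 0 were separated by 1.5-fold either way. They ran from −0.35 for CDK20 to 0.48 for CDK14, a kinase of the Wnt pathway, with 723 and 770 in the controls and 1047 and 1045 after rhSTIP1. CCNT1 (−0.33 ± 0.21), a partner of CDK9 in transcription, and CCNL2 (0.36 ± 0.27) were the others with the smallest p. All 14 mitotic kinases and passenger proteins were below 0, with a median of −1.25 and 12 separated lower by at least 1.5-fold. Those with the smallest p were AURKB (−2.08 ± 0.52), MASTL (−1.09 ± 0.28), CDCA8 (−1.38 ± 0.37) and BORA (−1.42 ± 0.38), which act beside CDK1 in mitosis. Replication licensing genes lay between, with 18 of 19 below 0, a median of −0.50 and 6 separated lower. They were led by ORC5 (−0.96 ± 0.23), CDT1 (−0.97 ± 0.33), ORC6 (−0.69 ± 0.26) and DBF4 (−0.98 ± 0.42). In these lists too, 0 genes passed limma's test adjusted over all genes. At an unadjusted limma p under 0.05 there were 5 of the RB and E2F list, 1 of the turnover list and 0 of the cyclins and CDKs outside the cycle. The mitotic list had 10 and the licensing list 4, and all of these genes were lower. Over all tested genes 2.64% were lower by that measure, and 3.79% were separated lower by at least 1.5-fold. The lists were not tested against each other or against the members.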

How the data were processed

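The authors deposited 1 intensity per probe set and array on a linear scale. Per the submitters' processing notes the tools were MAS5 and Affymetrix Expression Console 1.1. MAS5 scales each array on its own, and the mean after trimming 2% from each end was 500.1 on every array. Total RNA was labelled with biotin per the labels' protocols. Of 54613 probe sets other than controls 41091 had exactly 1 symbol, and each gene was read from its brightest one. Genes with a mean of at least 69.4 were tested (12296 of 19775). Groups were compared by lmFit and eBayes (intensity trend) of limma 3.58.1 in R 4.3.3 on log2(signal + 16), two-sided, adjusted by Benjamini-Hochberg over all tested genes, and checked on simulated data. Fold changes on this scale understate dim genes, and ± values are its standard errors. With 2 arrays against 2 an exact permutation test of 1 gene cannot go below a p of 0.333. The number of arrays limits the precision. Every member was named, and of each other list up to 4 genes with the smallest unadjusted p where 0 passed at 0.05, with every marker gene measured. The members and lists were chosen with earlier results of these data known. Alternatives covered the pseudocount, filter, scaling, probe sets, block, eBayes settings and each array left out. Promoter sequences are from RefSeq (GRCh38.p14).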

Additional observations from a re-analysis of the deposited data

How the results depend on the processing

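The 6 members that were lower without overlap by at least 1.5-fold numbered between 5 and 8 under the other settings with all 4 arrays. The share of all genes lower in that way ran from 2.85% (median centring) to 6.23% (no filter) under those settings. With 1 array left out the members numbered from 5 to 13. With no filter 2 members were separated higher, the dim CCND2 and CDKN2A, and with 1 array left out from 0 to 4. The other probe sets of CCND2 and CDKN2A were dimmer still. They overlapped between groups, except for a CCND2 probe set that was lower without overlap (−0.65). The shares of all genes separated higher were 4.32% with no filter and 3.32% to 7.69% with 1 array left out, and those separated lower 5.32% to 8.41%. Genes called over all genes numbered 0 as reported, 1 with a filter at the 70th percentile, 2 with robust eBayes and from 0 to 6 with 1 array left out. With the replicate number as a block 247 of the 12296 tested genes were called. Among them were 10 of the 29 tested members, all lower (CDK1, CDC25C, CCNA2, CCNF, CCNB2, CCNB1, CKS2, PKMYT1, CDKN1B and CDKN3). Deviations of same-numbered arrays from their group means correlated at 0.36 over the tested genes. The labels do not say that the numbers pair the arrays, and 2 pairs cannot show it, so the block was not used in the report. The median of the CDK inhibitors was 0.19 with the filter at the 70th percentile, which leaves out CDKN2D, and ran from −0.49 to 0.15 with 1 array left out. That of the G1/S members ran from −0.57 to 0.52. Other group medians moved by less than 1 SD between replicate arrays, though those of the G1 and the CAK and cyclin G members changed sign with 1 array left out (to −0.037 and 0.060). Under the settings with all arrays the sign turned for CDK6 (−0.047 with the mean of probe sets) and CDK7 (0.016 with median centring). With 1 array left out it turned for 15 of 29 members. The log2 fold change ran from −0.014 to 0.30 for CCNA1, −0.14 to 1.20 for CCND1, −0.13 to 0.49 for CCND3, −0.40 to 0.22 for CCNE1, −1.41 to 0.82 for CCNE2, −0.49 to 0.18 for CCNG1, −1.39 to 0.32 for CCNG2, −0.25 to 0.018 for CCNH, −0.31 to 1.20 for CDC25A, −0.80 to 0.23 for CDK2, −0.077 to 0.20 for CDK6, −0.43 to 0.35 for CDK7, −0.020 to 0.40 for CDKN1C, −1.56 to 0.11 for CDKN2D and −0.31 to 0.17 for WEE1. The cause of these shifts was not tested. A group reduced to 1 array is taken to vary as the other group does. Dim signals, as of CCND2, CDKN2A and CDKN2B, cannot be told from background.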
